A study of Mus musculus with 4 samples.

Results

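The 9 genes described here control how a cell senses, takes up and exports cholesterol. They are Srebf1, Srebf2, Scap, Insig1, Insig2, Stard4, Mylip, Abca1 and Abcg1, chosen by name, and all 9 were found among the 18193 genes named on the array, through 18 of its 45101 probe sets. For each gene the brightest probe set, by its mean over the 4 arrays, was used, and its other probe sets are given beside it. The arrays measured K7M2, a mouse osteosarcoma cell line known for spreading to the lung, grown in medium with fetal bovine serum. One-colour arrays of total RNA were run for K7M2 cells over-expressing GFP (1 array) and K7M2 cells over-expressing ezrinT567A-GFP (3 arrays, replicates 1 to 3). Ezrin ties membrane proteins to cortical actin, and the ezrinT567A form carries an alanine in place of its C-terminal regulatory threonine, so that this site cannot be phosphorylated. The labels give neither the promoter of the transgenes nor whether each replicate was a culture or clone of its own. The p-values therefore speak only of the spread among the 3 ezrinT567A-GFP arrays.

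As background, SREBPs are transcription factors made as membrane proteins of the endoplasmic reticulum. When sterols are plentiful, INSIG proteins hold the escort protein SCAP, and with it the SREBP, in that membrane; when sterols run low, SCAP carries SREBP to the Golgi, where proteases release its active part. SREBP2, from Srebf2, drives genes of sterol synthesis and uptake, and Insig1, Stard4 and Srebf2 itself are among its known targets. LXRs are nuclear receptors that sense oxysterols and induce the exporters Abca1 and Abcg1, the ubiquitin ligase Mylip and the Srebf1 transcript that encodes SREBP-1c.

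Values are log2 RMA expression, and differences are ezrinT567A-GFP minus GFP in log2 units, so that 1 unit is 2-fold. A level can be compared between arrays but not between genes, because probe sets differ in brightness. The array medians lay between 3.85 and 3.89 over all probe sets, and the lower quartiles, near which a signal cannot be told from background here, between 2.55 and 2.62. The number of arrays limits the precision: limma's spread came from the 3 ezrinT567A-GFP arrays and was taken to hold for the lone GFP array as well, and the smallest p that exact permutation can give with 4 arrays is 0.25. Control signals differed between arrays: the mean of the hybridization spike-ins was 9.32 in GFP and from 10.1 (replicate 1) through 10.4 (replicate 3) to 11.1 (replicate 2) in ezrinT567A-GFP, and 18S rRNA was at 9.09 in GFP, 11.3 in replicate 2 and 7.65 and 7.76 in the other replicates. Of the osteoblast genes listed, 5 were named on the array, of which Col1a1 and Col1a2, the chains of type I collagen, stood at 11.3 and 12.3 in GFP, the osteoblast transcription factor Sp7 at 5.05, and Alpl and Ibsp at 3.63 and 2.78, the last near background. Epithelial markers moved with the comparison: by their brightest probe sets all 6 were lower in all 3 ezrinT567A-GFP arrays (27% of all genes were). Their summed log2 level was 33.9 in GFP and 21.1 to 23.5 in ezrinT567A-GFP. Further probe sets differed less, by -0.20 for Krt17, by -0.08 for Epcam and by up to 0.08 for Krt14. Of 6 macrophage markers, whose sum was 27.9 in GFP and 27.5 to 28.5 in ezrinT567A-GFP, Ptprc (2.22 in GFP) and Adgre1 (2.76) were near background while Csf1r stood at 11.9, and the sum of the 4 adipocyte markers was 11.7 in GFP and 11.6 to 12.1. The part of these differences in the results below was not tested.

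The 3 SREBP2 targets lay higher in every ezrinT567A-GFP array than in GFP, the LXR targets lay on both sides of GFP, and Insig2 lay lower in every array. None of the 9 genes passed the test over all genes (limma adjusted p from 0.275 to 0.969), as none of the 18193 did (0%). With an unadjusted p under 0.05 were 2 of the 9 on the higher side, Stard4 and Srebf1, where 7.46% of all genes were, and 1 on the lower side, Insig2, where 6.5% were. All 3 ezrinT567A-GFP arrays lay above GFP for 4 of the 9 (32.5% of all genes) and below GFP for 1 (27% of all genes). In such shares of genes on the lower side, here and elsewhere, an array equal to GFP counts as lower. The median difference of the 9 was 0.13, beside 0.03 over all genes.

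**Figure D1:**
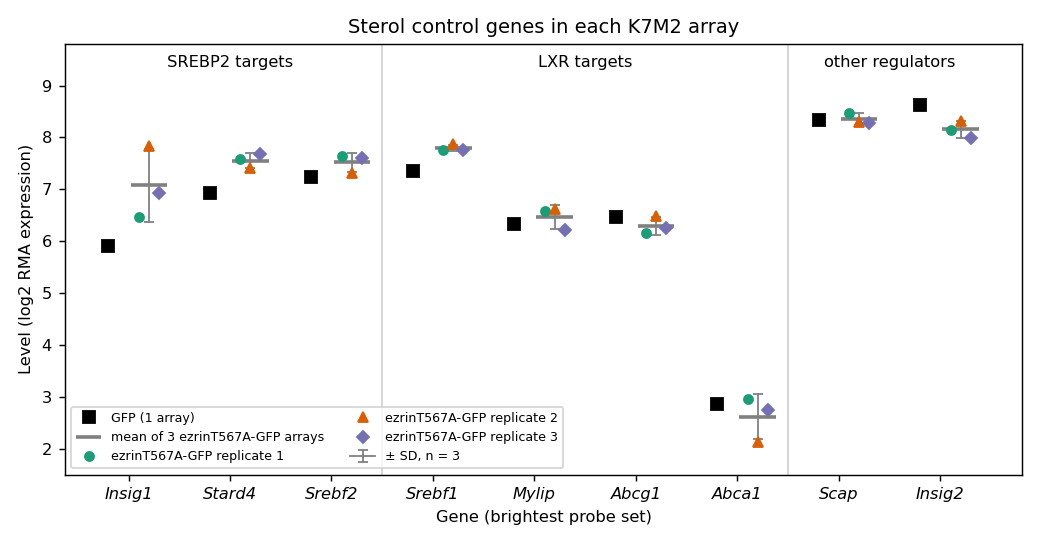
Level of each of the 9 genes (log2 RMA expression, vertical axis) in the GFP array (black square) and the 3 ezrinT567A-GFP arrays (coloured symbols), with their mean and SD (grey, n = 3). The black square lies below all 3 coloured symbols for Insig1, Stard4, Srebf2 and Srebf1 and above them for Insig2; levels of different genes are not comparable.

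Insig1, the retention protein of the SREBP complex whose own gene is an SREBP target, showed the largest difference of the 9. Its level was 5.90 in GFP and 6.46, 7.84 and 6.94 in ezrinT567A-GFP replicates 1, 2 and 3. The GFP array was the lowest, and the 3 ezrinT567A-GFP arrays were themselves spread over more than 1 unit. The mean was 7.08 ± 0.70 (SD, n = 3), a difference of 1.18 (SE 0.57, 95% interval -0.37 to 2.72, limma adjusted p = 0.449). The difference stood at percentile 99.3 of all genes, but so did the spread of the ezrinT567A-GFP arrays, at percentile 99.6. The order of the arrays, from GFP through replicates 1 and 3 to replicate 2, was also the order of the hybridization spike-ins given above; its part in the result was not tested. Without replicate 2 the difference was 0.79, and without replicate 1 it was 1.49. Insig1 has a single probe set, so no other measurement of it was at hand.

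Among the 9095 other genes above the median level, none had 3 array differences within a root mean square distance of 0.1 of those of Insig1. The nearest were Bst2 at 0.31, Ccl5 at 0.32, and Lmo2, Rtp4 and Cebpd at 0.34 each, over the 3 arrays. Bst2, an antiviral membrane tether, differed from GFP by 0.96, 1.61 and 1.15 in replicates 1, 2 and 3, where Insig1 differed by 0.56, 1.94 and 1.03. Bst2 and Rtp4 are interferon-induced genes, Ccl5 encodes a chemokine, Lmo2 a transcriptional adaptor and Cebpd a transcription factor. All 5 shared with Insig1 the order of the arrays, which follows in large part from their being picked by these same differences.

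Stard4 encodes a small soluble protein that carries sterol between membranes. Its level was 6.92 in GFP and 7.57, 7.40 and 7.68 in replicates 1, 2 and 3. All 3 ezrinT567A-GFP arrays lay above GFP and close together, at 7.55 ± 0.14 (SD, n = 3). The difference was 0.63 (SE 0.16, 95% interval 0.21 to 1.05), which is 1.55-fold, with an unadjusted p of 0.014 in limma and an adjusted p of 0.275, the lowest of the 9. Its other probe sets differed the same way, by 0.48 (6.44 in GFP, 6.88 to 6.95 in ezrinT567A-GFP) and by 0.36 (6.53 in GFP, 6.76 to 7.12), again with no overlap with GFP. Stard4 lies on chromosome 18, whose 222 genes above the median level had a median difference of 0.21, with 55.0% of them higher in all 3 arrays.

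Srebf2, the gene of SREBP2, showed the smallest difference of the 3. Its level was 7.23 in GFP and 7.65, 7.31 and 7.61 in replicates 1, 2 and 3, so that replicate 2 lay only 0.08 above GFP. The difference was 0.29 (SE 0.18, 95% interval -0.20 to 0.79, limma adjusted p = 0.549). A further probe set gave 6.91 in GFP and 7.74, 7.31 and 7.19 in replicates 1, 2 and 3, a difference of 0.50 (SE 0.26). Both probe sets put GFP lowest, while they ordered the 3 replicates differently.

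**Figure D2:**
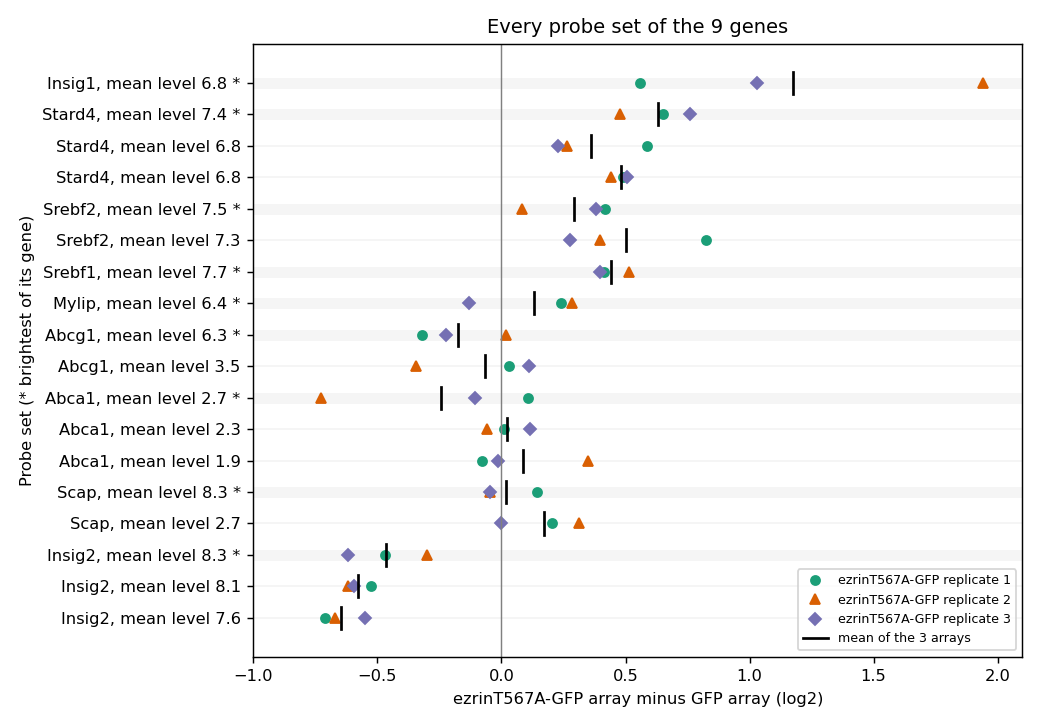
Difference of each ezrinT567A-GFP array from the GFP array (log2, horizontal axis) for all 18 probe sets of the 9 genes, with the mean of the 3 arrays as a black bar and an asterisk on the brightest probe set of each gene. All 6 probe sets of Insig1, Stard4 and Srebf2 lie above 0 and all 3 of Insig2 below 0 in every array, while the arrays lie on both sides of 0 for Abca1, Abcg1, Mylip and the brighter probe set of Scap.

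The windows around the annotated starts of Srebf2 and Insig1, the SREBP2 targets with an entry in the promoter table, are shown because these genes lay on the same side of GFP. Both are RefSeq sequences of GRCm38.p6, from 250 bases before the start to 50 after it, read on the plus strand. Srebf2 (chr15:82147019-82147318) has in capitals its match to ATCACCCCA, the beginning of the classical sterol regulatory element, 163 to 155 bases before the start, and Insig1 (chr5:28071162-28071461) its CCAAT box, the NF-Y motif often found beside such elements, on the opposite strand.
Srebf2: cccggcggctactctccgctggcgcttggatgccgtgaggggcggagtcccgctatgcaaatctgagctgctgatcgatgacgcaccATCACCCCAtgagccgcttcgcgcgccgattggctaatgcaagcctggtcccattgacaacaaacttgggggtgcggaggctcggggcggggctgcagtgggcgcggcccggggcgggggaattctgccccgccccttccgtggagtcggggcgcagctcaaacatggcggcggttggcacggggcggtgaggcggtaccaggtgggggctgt
Insig1: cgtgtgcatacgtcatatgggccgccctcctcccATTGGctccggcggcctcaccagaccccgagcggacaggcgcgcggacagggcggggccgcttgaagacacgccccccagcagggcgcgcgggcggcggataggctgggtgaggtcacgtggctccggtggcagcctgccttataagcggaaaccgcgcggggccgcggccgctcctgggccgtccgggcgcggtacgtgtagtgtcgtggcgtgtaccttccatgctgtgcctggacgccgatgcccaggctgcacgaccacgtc
Searched on both strands, ATCACCCCA was in 0.28% of 32851 such windows and CCAAT in 37.4%. In all, 12 motif forms were searched in the windows of the 9 genes, of which 7 were in none of them, and the forms and windows shown here and further on were picked after the matches were seen. ATCACCCCA was added last, after the Srebf2 window had been read, and the longer and the looser forms of this element had no match there. A fuller element, TCACNCCAC, was in 1.24% of windows and in none of those of the members, while Hmgcs1, an SREBP2 target of the mevalonate pathway, had it 137 to 129 bases before its start. A match is a description of letters in this window and not a shown binding site.

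Among the LXR targets, Srebf1 was the one that lay higher in every array. Srebf1 encodes SREBP-1a and SREBP-1c, which act mainly on fatty acid genes, and its probe set does not tell these transcripts apart here. Its level was 7.35 in GFP and 7.76, 7.87 and 7.75 in replicates 1, 2 and 3, so the 3 ezrinT567A-GFP arrays lay within 0.12 of each other and above GFP. The difference was 0.44 (SE 0.12, 95% interval 0.12 to 0.76), which is 1.36-fold, with an unadjusted p of 0.0182 in limma and an adjusted p of 0.282. Many genes had a profile like it: 240 of the 9095 genes above the median level lay within 0.1 of its 3 array differences, and the nearest were Pik3r5 at a distance of 0.012, Slc27a4 at 0.019 and Siah1a, Tcp11l2 and Cnnm2 at 0.020 each. Srebf1 lies on chromosome 11, where 763 genes above the median level had a median difference of 0.11. Of these, 49.3% were higher in all 3 arrays, beside 32.5% of all genes.

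Abcg1 and Abca1 are the cholesterol exporters among the 9. Abcg1, which moves cholesterol to lipoprotein particles, was at 6.47 in GFP and 6.15, 6.49 and 6.25 in replicates 1, 2 and 3, so replicate 2 was level with GFP and the groups overlapped. Its difference was -0.18 (SE 0.18, 95% interval -0.66 to 0.31, limma adjusted p = 0.735), and a dimmer probe set gave -0.07. Without replicate 2 it was -0.27 and without replicate 1 it was -0.10. The 95% interval overlapped that of Srebf1, and the difference between these genes was not tested. On chromosome 17, where it lies, the median difference of 435 genes was -0.13.

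Abca1, which loads cholesterol onto apolipoprotein A-I, was at 2.86 in GFP and 2.96, 2.13 and 2.75 in replicates 1, 2 and 3 by its brightest probe set. Its other probe sets stood between 1.80 and 2.41 in all 4 arrays, so all 3 lay near or below the lower quartile of the arrays, where a level is not shown to be above background. The difference was -0.24 (SE 0.36, 95% interval -1.21 to 0.72, limma adjusted p = 0.820), with 0.02 and 0.09 by the other probe sets, and the groups overlapped in all of them. Without replicate 2 the difference was -0.0013 and without replicate 1 it was -0.42. At such a level neither a rise nor a fall of Abca1 could be measured well.

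Mylip, the ubiquitin ligase that marks lipoprotein receptors for degradation, was at 6.34 in GFP and 6.58, 6.62 and 6.21 in replicates 1, 2 and 3. Replicates 1 and 2 lay above GFP and replicate 3 below it. The difference was 0.13 (SE 0.21, 95% interval -0.45 to 0.71, limma adjusted p = 0.841). It was 0.055 without replicate 2, 0.076 without replicate 1 and 0.26 without replicate 3.

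Windows of Abca1 and Srebf1 are shown because each holds a loose match to the LXR type of motif. This motif is a pair of half-sites spaced by 4 bases. Srebf1 lay above GFP in every array, while Abca1 was too near background for a direction to be read. Abca1 (chr4:53159846-53160145) and the most downstream of the 3 annotated Srebf1 starts (chr11:60210422-60210721) are RefSeq sequences of GRCm38.p6 read on the minus strand, with capitals for the match to a relaxed form of this motif, GGTNA and again GGTNA with 5 free bases between them, which lies on the opposite strand in both.
Abca1: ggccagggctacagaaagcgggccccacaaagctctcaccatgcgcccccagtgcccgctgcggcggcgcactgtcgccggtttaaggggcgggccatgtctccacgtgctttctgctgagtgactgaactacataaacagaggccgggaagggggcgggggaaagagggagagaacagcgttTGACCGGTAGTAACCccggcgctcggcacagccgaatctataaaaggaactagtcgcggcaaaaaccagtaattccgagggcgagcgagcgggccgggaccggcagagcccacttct
Srebf1: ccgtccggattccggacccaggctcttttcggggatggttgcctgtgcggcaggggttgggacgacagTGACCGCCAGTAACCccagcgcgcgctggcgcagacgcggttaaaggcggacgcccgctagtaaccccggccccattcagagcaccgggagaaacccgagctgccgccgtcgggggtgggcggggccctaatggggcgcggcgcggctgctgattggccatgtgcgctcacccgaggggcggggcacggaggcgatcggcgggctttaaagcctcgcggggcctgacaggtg
The match lies 67 to 53 bases before the start of Abca1 and 182 to 168 bases before that start of Srebf1. The relaxed form was kept because stricter forms had no match in the members' windows. On both strands it was in 0.718% of the 32851 windows, and the strict form, AGGTCA and again AGGTCA with 4 free bases between them, in 0.0152% of them and in no window of the 9 genes. Of the 9 genes 7 had a window in the table, and Abcg1 and Stard4 had none.

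The comparison of SREBP2 targets with LXR targets was then made for each ezrinT567A-GFP array against GFP. The median difference of Insig1, Stard4 and Srebf2 was 0.56 in replicate 1, 0.48 in replicate 2 and 0.76 in replicate 3. That of Srebf1, Mylip, Abca1 and Abcg1 was 0.17, 0.15 and -0.12. The SREBP2 median thus exceeded the LXR median in each of the 3 arrays, by 0.38, 0.33 and 0.88, or 0.53 ± 0.30 (SD, n = 3), and by 0.65 when each gene's mean over the arrays was used. The 3 arrays share the single GFP array, so a GFP value that was off for some gene would shift all 3. With so few genes the LXR median changed sign with the processing, from -0.02 to 0.03 without replicate 2, 0.06 without replicate 3, 0.04 with probe sets averaged per gene and 0.13 without dim genes.

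Longer lists of known targets were then described. Of 17 other SREBP2 targets on the array, all enzymes or proteins of sterol synthesis or handling, 16 were higher in all 3 arrays (32.5% of all genes were), 8 of them at least 2-fold (0.973% of all genes), and the median difference was 0.997. These sterol synthesis genes had been seen to be higher in earlier results of these data, so they are no independent support. The smallest p belonged to Mvd (1.67, SE 0.12), which makes isopentenyl pyrophosphate, to the sterol demethylating enzymes Cyp51 (1.90, SE 0.16) and Msmo1 (1.81, SE 0.17), and to the cyclase Lss (1.06, SE 0.12), with limma adjusted p between 0.153 and 0.187. Their other probe sets differed less in part, down to 0.56 for Cyp51 and 0.33 for Msmo1. Of the 16, some differed in sign over their probe sets: Sc5d (-0.35 to 0.34), Fdft1 (-0.19 to 1.04) and Hsd17b7 (-0.11 to 0.23). Fdps ranged from 0.20 to 1.58. Ebp, a sterol isomerase named after its value was seen, was the 1 gene that was lower by its brightest probe set (-0.32, SE 0.14, limma adjusted p = 0.406). With an unadjusted limma p under 0.05 were 13 of the 17, all on the higher side.

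Of 14 other LXR targets 10 were higher and 4 lower, with a median difference of 0.10 and 0 that reached 2-fold. In all 3 arrays 5 were above GFP (32.5% of all genes were) and 1 below (27% of all genes), so the higher share was near that of all genes. Of the 14, 8 stood below 3 in GFP, close to background, where a difference can hardly be measured, while none of the 17 SREBP2 targets did. Nr1h3, the gene of LXR alpha and itself an LXR target, was at 4.27 in GFP and 4.70, 4.89 and 4.71 in replicates 1, 2 and 3, a difference of 0.50 (SE 0.14, unadjusted p = 0.0215, limma adjusted p = 0.287). The sterol half-transporter gene Abcg8 differed by 0.53 (SE 0.20, limma adjusted p = 0.361), Cd5l, which macrophages secrete, by -0.35 (SE 0.18) and the lipase Lpl by 0.21 (SE 0.13, with -0.47 by a further probe set), but at 2.99 and 2.73 in GFP neither is shown to be above background. Only 3 of the 14 belonged to the brighter genes of the array, those above the median level. The SREBP2 median exceeded the LXR median by 0.91, 0.89 and 0.84 in replicates 1, 2 and 3, or 0.88 ± 0.04 (SD, n = 3), over these other targets, a comparison of well measured genes with mostly dim ones.

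**Figure D3:**
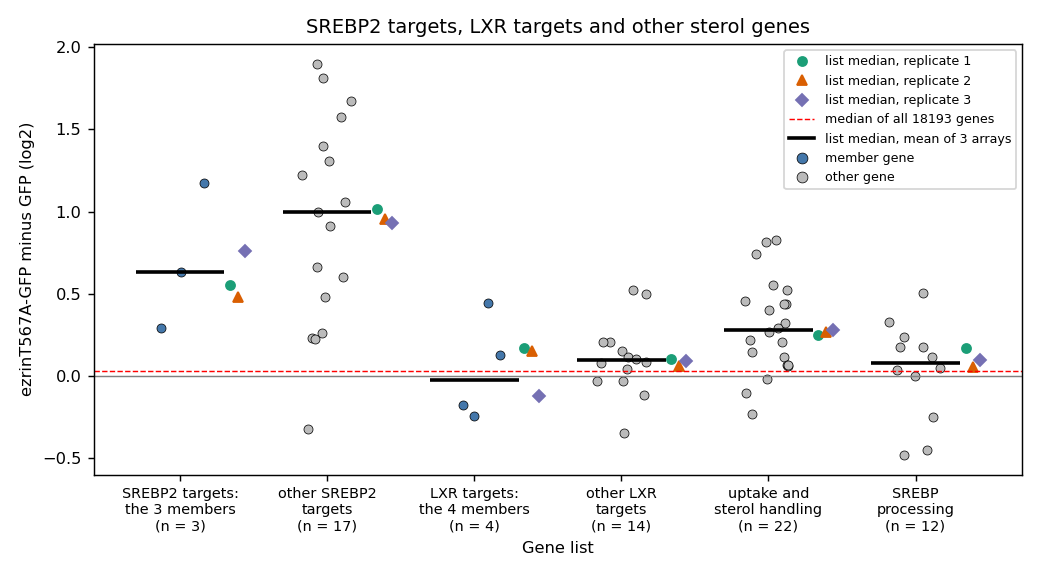
Difference of each gene (ezrinT567A-GFP mean minus GFP, log2, vertical axis) in 6 gene lists, with each list's median (black bar), its median in each replicate (coloured symbols) and the median of all genes (dashed line, 0.03). The medians of the SREBP2 targets, 0.63 for the 3 members and 0.997 for the others, lie above those of the LXR targets, -0.02 and 0.10, of which most of the other genes are dim. The list labelled SREBP processing also holds genes of sterol sensing, Rxra and Rxrb.

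The remaining members act before SREBP reaches the nucleus. Scap, the sterol-sensing escort of SREBP, was at 8.33 in GFP and 8.48, 8.29 and 8.29 in replicates 1, 2 and 3, with GFP inside that range. Its difference was 0.02 (SE 0.13, 95% interval -0.35 to 0.38, limma adjusted p = 0.969), and its sign turned with centring of the arrays (-0.03) and without replicate 1 (-0.05). A dim further probe set, at 2.54 in GFP, gave 0.17.

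Insig2, the second INSIG retention protein, whose gene is not known as a direct SREBP target, lay on the other side of GFP from Insig1. Its level was 8.62 in GFP and 8.15, 8.32 and 7.998 in replicates 1, 2 and 3, with all 3 below GFP. The difference was -0.46 (SE 0.16, 95% interval -0.91 to -0.02, unadjusted p = 0.0433, limma adjusted p = 0.342). The other probe sets were lower too, by -0.58 (8.53 in GFP, 7.92 to 8.01 in ezrinT567A-GFP) and -0.64 (8.06 in GFP, 7.35 to 7.51), with unadjusted p of 0.00592 and 0.00679 in limma over all probe sets, adjusted p = 0.300 for both. All 3 probe sets thus separated GFP from the ezrinT567A-GFP arrays without overlap. Insig2 lies on chromosome 1, where 510 genes above the median level had a median difference of -0.34 and 73.7% of them were lower in all 3 arrays, against 27% of all genes. The brightest probe set lay 0.13 below that median and the others 0.24 and 0.31 below it, with SE of 0.16, 0.11 and 0.13 for the probe sets themselves, and the part of the chromosome in the difference was not tested.

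**Figure D4:**
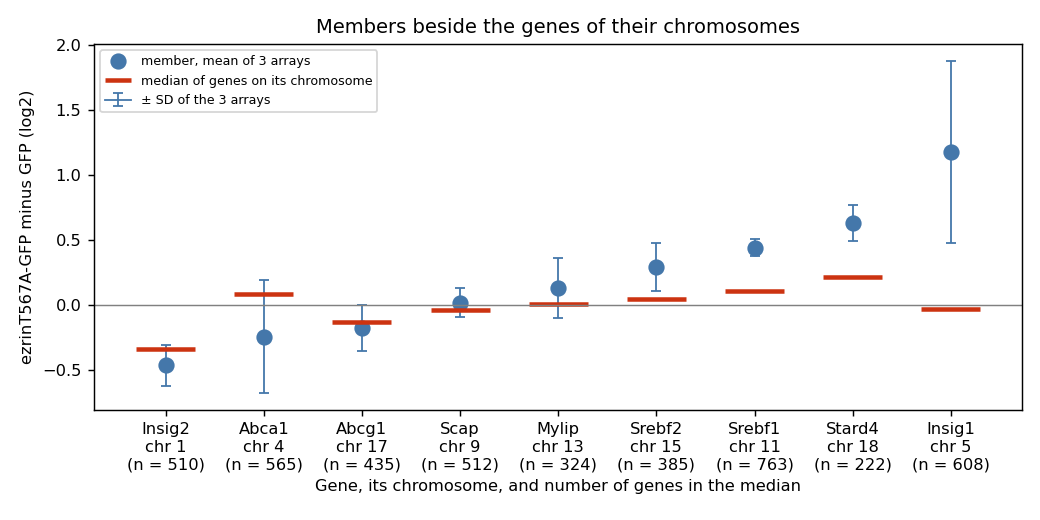
Difference of each of the 9 genes (blue point, ezrinT567A-GFP mean minus GFP, log2, with the SD of the 3 arrays) beside the median difference of the genes above the median level on its chromosome (red bar; n is their number). Insig2 and the median of chromosome 1 are both low, at -0.46 and -0.34, while Insig1, at 1.18, stands apart from the median of chromosome 5, at -0.03.

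Other genes of SREBP processing and sterol sensing differed little as a list. The list also holds the receptor genes Rxra (0.04) and Rxrb (-0.25), placed there for sterol sensing. Of 12 on the array 9 were higher and 3, Rxrb among them, lower, with a median of 0.08. Of these 12, 0 had an unadjusted p under 0.05 in limma or passed over all genes. Mbtps2, the protease that makes the second cut in SREBP, was at 8.64 in GFP and 9.18, 8.89 and 9.37 in replicates 1, 2 and 3, a difference of 0.50 (SE 0.22, limma adjusted p = 0.406). Rnf145, a ubiquitin ligase of the endoplasmic reticulum, differed by -0.48 (SE 0.18), the ubiquitin-conjugating enzyme gene Ube2g2 by 0.33 (SE 0.13) and Fbxw7, whose protein targets nuclear SREBP for degradation, by -0.45 (SE 0.21), with limma adjusted p between 0.362 and 0.430. All 3 arrays lay on 1 side of GFP for these 4 genes, as for 59.4% of all genes.

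The last list holds genes that take up and handle cholesterol. By the brightest probe sets, 17 of 22 on the array were higher in all 3 arrays (32.5% of all genes were). A further 1 was above GFP in none of the 3 (27% of all genes), with replicate 1 equal to GFP and the other replicates lower. The median difference was 0.28, with 0.25, 0.27 and 0.28 in replicates 1, 2 and 3. Some of the 17 differed in sign over their probe sets: Gramd1b (-0.42 to 0.15), Cyp27a1 (-0.22 to 0.22), Lrp1 (-0.16 to 0.74), Scarb1 (-0.14 to 0.29) and Cd36 (-0.07 to 0.21). At 2.99 and 2.22 in GFP, Cyp27a1 and Cd36 are not shown to be above background. With an unadjusted p under 0.05 were 8 genes, all higher (7.46% of all genes), while 0 passed limma over all genes. The 4 of smallest p were Lipa, Npc2, Npc1 and Gramd1a. Lipa, the acid lipase that frees cholesterol from its esters, was at 6.74 in GFP and 7.47, 7.64 and 7.54 in replicates 1, 2 and 3, a difference of 0.81 (SE 0.13, limma adjusted p = 0.209, 0.62 to 0.91 over its probe sets). Npc1 and Npc2, which pass cholesterol out of the lysosome, differed by 0.83 (SE 0.18, limma adjusted p = 0.247) and 0.46 (SE 0.10, limma adjusted p = 0.246), Npc2 by 0.21 to 0.89 over its probe sets. Gramd1a, which carries cholesterol from the plasma membrane to the endoplasmic reticulum, differed by 0.53 (SE 0.12, limma adjusted p = 0.263). All 4 put GFP below every ezrinT567A-GFP array.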

How the data were processed

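Per the labels, biotinylated cRNA was made by the Affymetrix one-cycle assay. The authors deposited log2 expression values, 1 per probe set, made with RMA per the submitters' processing notes. The program, its version and the genome build are not given in these sources. Because RMA brings the arrays to a common distribution, it hides any change in the RNA content of cells. The log2 scale was read from the range, 1.18 to 13.7.

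Gene names came from the platform's annotation table: 34958 had 1 gene symbol, 932 several and 9211 were not listed. Control probe sets and those without exactly 1 symbol were left out. Gene IDs were matched to a RefSeq gene table of GRCm38.p6 (34754 matched), used for chromosomes. The comparison used limma 3.58.1 under R 4.3.3 (lmFit, eBayes with a mean trend, 2 residual degrees of freedom, prior 2.23), two-sided, adjusted after Benjamini and Hochberg over 18193 genes, threshold 0.05. The fit was tested on simulated data: in 10 simulations of this comparison over 18193 genes it recovered 72.75% of 200 genes changed 4-fold, with 1.8 false calls on average. No member differed that much, as the largest difference, of Insig1, was 2.26-fold. The simulated GFP array was given the spread of the ezrinT567A-GFP arrays. The simulations therefore do not show how well smaller changes, or those against a GFP group of another spread, are recovered. Named genes are the 9 members, up to 4 of smallest p in each list, and the 5 genes nearest to the SREBP2 and the LXR target of largest difference. Members and lists were chosen with earlier results of these data known. Genes of the lists that the annotation does not name were not used here. Figures were drawn with matplotlib 3.10.9. Alternatives were other scalings, probe set rules, a filter on dim genes, other priors and leaving out each replicate.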

Additional observations from a re-analysis of the deposited data

How the results depend on the processing

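No paired analysis was possible because the GFP group has 1 array, whose label carries no replicate number. The count of members passing limma stayed at 0 under all 10 alternatives, of which 2 tested only 8 members (without Srebf1 for plain probe sets, without Abca1 for genes above the median level), while the count over all genes went from 0 to 34 with quantile normalization, 26 with arrays centred on their median, 6 with probe sets averaged per gene, 3 with only genes above the median level and 9 with a robust prior; the cause was not tested. It was 0 without each replicate in turn. Of the 9 genes, Scap alone turned sign, to -0.030 with centred arrays, and ranged from -0.046 to 0.050 without each replicate. The SREBP2 minus LXR difference of the members stayed between 0.45 and 0.81, the upper end with plain probe sets, which drop Srebf1. The LXR median of the members turned to 0.043 with averaged probe sets and to 0.13 with only genes above the median level, which drops Abca1, and lay between -0.014 and 0.056 without each replicate. The medians of the longer lists under these same alternatives, given next, were added after seeing the data. With centred arrays the median of other SREBP2 targets was 0.95, that of other LXR targets 0.048 and that of uptake and handling genes 0.23. With the mean of probe sets the SREBP2 median was 0.91 and the uptake median 0.20. The uptake median was 0.22 with plain probe sets only and 0.42 with only genes above the median level. Without each replicate in turn the other SREBP2 targets ranged from 0.94 to 1.07, the uptake genes from 0.24 to 0.29 and the SREBP processing and sterol sensing genes from 0.027 to 0.15. The single GFP array and the dim level of Abca1 and most LXR targets limit what can be measured.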
